A study of Mus musculus with 10 samples.

Results

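The immediate early genes of the AP-1 and NR4A families were followed in the retinas of 5 wild-type C57BL/6J mice. The members were 10 genes taken by symbol: the Fos family genes Fos, Fosb and Fosl2, the Jun family genes Jun, Junb and Jund, the NR4A nuclear receptors Nr4a1, Nr4a2 and Nr4a3, and Ier2. All 10 were listed among the 25905 genes of the deposited table, and 8 of them reached a mean of 1 CPM (a read count scaled to library size, not divided by gene length), as did 14210 genes in all. Each mouse wore a lens of −20 dioptres, held in a goggle, in front of 1 eye for 10 days from postnatal day 24, with the fellow eye left without a lens. A minus lens of this kind defocuses the image, and a young eye under it elongates and turns short-sighted. Both retinas were taken on postnatal day 34, which gave 5 right and 5 left retinas from the mice numbered 61, 64, 65, 66 and 68. Right and left are labelled, but the eye with the lens is not. The comparisons were therefore right against left within a mouse, and mouse against mouse, and no library is called treated or control.

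Immediate early genes are transcribed within minutes of a stimulus, without the need for new protein. Fos and Jun proteins form the dimeric transcription factor AP-1: Fos proteins need a Jun partner to bind DNA, whereas Jun proteins can also pair among themselves. The NR4A proteins are orphan nuclear receptors that act without a known natural ligand and whose activity follows mainly from how much is made. In the retina, light and synaptic activity induce Fos in amacrine and ganglion cells.

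The listed genes of a library stood for 29700000 to 37300000 counts, and 1 CPM for 89.7 to 113.8 counts. They summed to 321661 to 346696 CPM, so most counts behind the CPM scale lie outside the listed genes. The sums were highest in the right and left retina of mouse 61 (334460 and 346696 CPM). All 17 markers of retinal neurons and glia were detected in every retina, with a summed level of 9957 to 10522 CPM on the right and 9633 to 11401 CPM on the left. Markers of lens (772.4 CPM summed over 9 genes in the right retina of mouse 65, 8.99 to 121.6 CPM in the other 9 libraries) and of skeletal muscle (80.4 CPM summed over 8 genes in the left retina of mouse 68, 1.90 to 4.27 CPM in the others) stood apart in those libraries. The labels state that part of the raw reads of the right retina of mouse 64 was lost to corruption. As these are whole retinas, a change in the number of cells of a type and a change in RNA per cell cannot be told apart.

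The upstream sequences of 5 members are shown because Fos and Nr4a1 differed most between mice, while their relatives Jun and Nr4a2 varied little and Nr4a3 was scarcely expressed. Each run is the 250 bases before the transcription start of RefSeq on GRCm38.p6, written 5′ to 3′ on the strand of the gene. Capitals mark TGACG or its complement CGTCA, the core of the cAMP response element through which calcium and cAMP signals act on immediate early genes.
Fos, chr12:85473640-85473889, plus strand: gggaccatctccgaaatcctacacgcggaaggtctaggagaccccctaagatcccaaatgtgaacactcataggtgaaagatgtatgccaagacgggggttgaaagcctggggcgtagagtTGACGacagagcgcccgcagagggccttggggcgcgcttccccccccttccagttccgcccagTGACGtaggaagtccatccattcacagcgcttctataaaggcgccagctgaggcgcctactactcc
Jun, chr4:95052223-95052472, minus strand: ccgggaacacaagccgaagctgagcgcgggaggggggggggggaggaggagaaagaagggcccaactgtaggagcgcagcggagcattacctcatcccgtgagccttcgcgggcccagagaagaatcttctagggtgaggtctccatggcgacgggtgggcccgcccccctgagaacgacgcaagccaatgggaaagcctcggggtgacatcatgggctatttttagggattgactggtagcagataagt
Nr4a1, chr15:101266596-101266845, plus strand: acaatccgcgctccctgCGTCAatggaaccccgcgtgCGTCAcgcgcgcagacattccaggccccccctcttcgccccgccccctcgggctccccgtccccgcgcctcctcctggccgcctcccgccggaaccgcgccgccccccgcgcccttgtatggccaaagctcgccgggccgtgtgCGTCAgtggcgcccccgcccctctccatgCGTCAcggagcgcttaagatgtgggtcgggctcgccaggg
Nr4a2, chr2:57124004-57124253, minus strand: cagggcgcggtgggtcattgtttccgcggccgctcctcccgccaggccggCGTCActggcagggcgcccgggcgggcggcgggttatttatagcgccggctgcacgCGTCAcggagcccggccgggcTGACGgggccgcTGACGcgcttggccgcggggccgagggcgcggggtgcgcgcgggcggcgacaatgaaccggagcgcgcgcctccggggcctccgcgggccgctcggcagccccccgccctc
Nr4a3, chr4:48045055-48045304, plus strand: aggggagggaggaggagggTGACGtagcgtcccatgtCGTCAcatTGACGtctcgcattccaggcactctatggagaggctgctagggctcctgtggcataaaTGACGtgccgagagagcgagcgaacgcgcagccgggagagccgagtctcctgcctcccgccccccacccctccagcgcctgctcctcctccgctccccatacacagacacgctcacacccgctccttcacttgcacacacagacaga
The core occurred 2 times before Fos, at positions −129 and −66 from the start, and 4 times before each of the 3 NR4A genes. It was not found before Jun, and it occurred 1 time each before Fosb and Junb and not in the windows of Fosl2 and Jund. Of the 32817 promoters in the RefSeq table, 17.7% held the core on either strand and 0.689% held it 3 or more times. The pattern TGANTCA, which takes in the AP-1 element but allows any base in the middle, was found in none of the 9 windows. The 8-letter element AAAGGTCA bound by NR4A proteins was not found in them. The CArG box of serum response factor was not found in them either. Of all promoters 6.75%, 1.34% and 1.47% held these sequences, in this order. The first share counts any middle base and is not that of the AP-1 element alone. Only exact matches within the 250 bases were sought, so variant spellings and elements farther away would be missed. The EGR element GCGNGGGCG was found before Fosb, Fosl2, Nr4a1 and Nr4a2, against 4.7% of all promoters. The windows of Fos, Jun and Nr4a2 end at the deposited start of the gene. The RefSeq starts of Nr4a1, Nr4a3, Fosl2 and Fosb lie 12577, 152, 671 and 6 bases inside the deposited gene, and those of Jund and Junb 1210 and 30 bases before it.

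Per length of exon, Jund was the most abundant member and Nr4a3 the least. Jund, a Jun protein present in resting cells, averaged 4.31 ± 0.754 CPM per kb (SD, n = 10 retinas), above 83.5% of 16448 protein-coding genes. Fos averaged 3.10 ± 2.15, Jun 2.44 ± 0.316 and Nr4a1 2.10 ± 0.738 CPM per kb. Junb followed with 1.42 ± 0.357 and Ier2, which encodes a small nuclear protein, with 0.978 ± 0.403 CPM per kb. Nr4a2 averaged 0.412 ± 0.0659, Fosl2 0.209 ± 0.0278, Fosb 0.0982 ± 0.0319 and Nr4a3 0.0739 ± 0.0216 CPM per kb. The order from Nr4a1 down to Fosb held in 10 of 10 libraries for each neighbouring pair. Neighbours at the top did not separate: Jund exceeded Fos in 8 of 10 libraries, Fos exceeded Jun in 3 of 10 and Jun exceeded Nr4a1 in 7 of 10. Fosb exceeded Nr4a3 in 7 of 10. The remaining Fos family gene, Fosl1, was listed at 0 in 5 of 10 libraries and at no more than 0.0547 CPM, or 5 counts, in any other. Exon length is the union of all annotated exons of a gene.

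Fos was the member that varied most, and mouse 61 carried the variation. It measured 15.2 CPM in the right and 18.2 CPM in the left retina of mouse 61. The right and left retinas held 5.17 and 5.09 CPM in mouse 64 and 4.57 and 6.27 CPM in mouse 65. They held 3.80 and 4.29 CPM in mouse 66, and 5.09 and 5.2 CPM in mouse 68. Both retinas of mouse 61 thus lay above all 8 others, with a mean 3.38 times theirs.

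Nr4a1, also known as Nur77 and the most readily induced NR4A receptor, was likewise highest in mouse 61 and lowest on average in mouse 66. Its level was 11.3 CPM in the right and 12.9 CPM in the left retina of mouse 61, 1.94 times the mean of the other 8. Mice 64, 65, 66 and 68 held 6.74, 6.47, 5.03 and 5.42 CPM in the right retina and 7.0, 7.32, 5.91 and 5.81 CPM in the left. Ier2 was highest in mouse 61 as well, at 2.30 CPM on the right and 2.81 CPM on the left, against 0.966 to 1.68 CPM in the other 8 (median 1.22 CPM). Mouse 61 did not overlap with the other mice for either gene, and 13.2% of all tested genes likewise had both retinas of mouse 61 above the other 8.

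**Figure D1:**
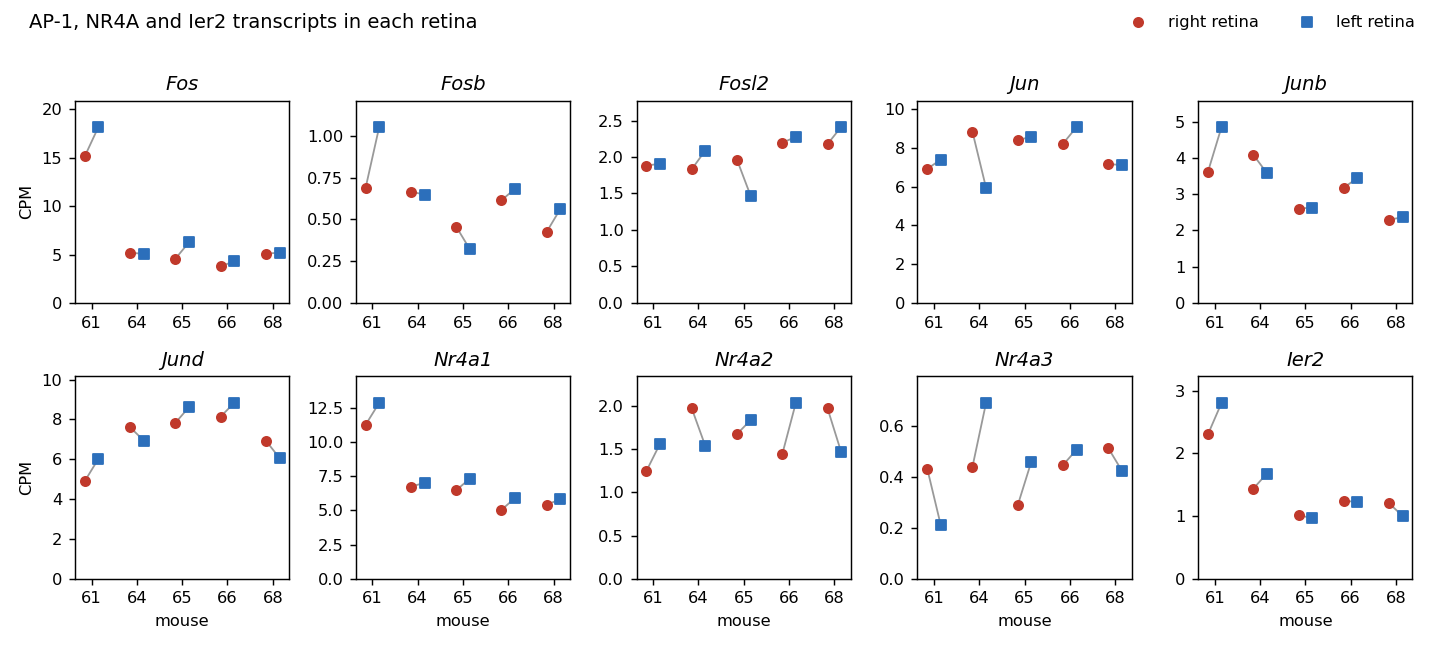
CPM (vertical axis, from 0) of each of the 10 members in the right retina (red circles) and left retina (blue squares) of each mouse (horizontal axis), with a line joining the retinas of a mouse. Fos, Nr4a1 and Ier2 are high in both retinas of mouse 61 (Fos 15.2 and 18.2 CPM), while Jun, Fosl2 and Nr4a2 show no such step.

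In the test between mice, 3 of the 8 tested members passed over all genes, namely Fos, Nr4a1 and Ier2, where 0.57% of the 14210 tested genes passed. At an unadjusted p under 0.05 there were 5 of 8, with Junb and Jund added, where 13.8% of genes were. The test was limma's moderated F-test on log2(CPM + 1) with the side as a term and Benjamini-Hochberg adjustment. The mouse means of Fos spanned 1.81 log2 units (adjusted p = 0.00018), those of Nr4a1 1.01 (adjusted p = 0.00165) and those of Ier2 0.83 (adjusted p = 0.0436). Without mouse 61 no member passed, and the spans were 0.34, 0.29 and 0.36 log2 units (adjusted p = 0.808, 0.621 and 0.797, limma). Ier2 lay near the threshold and did not pass with a pseudocount of 0.1 CPM (adjusted p = 0.058), without a filter (0.134), without a variance trend (0.0524), without mice 65 and 68 (0.147) or without any single library (0.0581 to 0.521). Without the left retina of mouse 61, Nr4a1 did not pass either (adjusted p = 0.0651).

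Each mouse was then set against the mean of the other 4. The SEs and p-values of these contrasts rest on differences between fellow eyes, not on the spread between mice. In mouse 61 Fos was higher by 1.58 log2 units (SE 0.09, adjusted p = 1.18e-05), Nr4a1 by 0.86 (SE 0.06, adjusted p = 0.000203) and Ier2 by 0.68 (SE 0.09, adjusted p = 0.00965), by limma's contrast. Of all tested genes 0.844% passed as higher in mouse 61 and 0.366% as lower. Ier2 lost the call when either retina of mouse 61 was left out (adjusted p = 0.108 without the right and 0.367 without the left) and without mice 65 and 68 (0.0686). The remaining members did not pass in this contrast. Junb differed by 0.39 (SE 0.10, adjusted p = 0.0788), Fosl2 by −0.07, Jun by −0.12 and Nr4a2 by −0.19 log2 units (adjusted p = 0.685, 0.53 and 0.367).

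Jund stood out in the other direction. It measured 4.91 CPM in the right and 6.02 CPM in the left retina of mouse 61, against 6.06 to 8.83 CPM in the other 8 (median 7.72 CPM), so that both retinas of mouse 61 were the lowest of the 10. The difference of −0.41 log2 units (SE 0.09) did not pass (limma adjusted p = 0.0545), and it did under 7 of the alternatives tried, among them median-ratio scaling (adjusted p = 0.0378). Its adjusted p ran from 0.0309 to 0.344 over the alternatives. Both retinas of mouse 61 lay above all others for 3 of the 8 tested members and below for 1, where 13.2% and 4.87% of tested genes did so; with median-ratio scaling these counts over all genes were 1230 and 1232, against 1874 and 692. In mice 64, 65, 66 and 68 no tested member had both retinas above all others, where 2.09%, 3.19%, 2.05% and 1.93% of genes did. Fos was below all others in mouse 66 (2.2% of genes) and Junb in mouse 68 (2.69%), and none in mice 64 and 65 (5.06% and 2.62%).

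Mouse 66 had the lowest Fos and Nr4a1. Both genes passed as lower than in the other 4 mice, with differences of −0.68 log2 units for Fos (SE 0.09, adjusted p = 0.0191) and −0.41 for Nr4a1 (SE 0.06, adjusted p = 0.046), where 0.162% of genes did (limma). The mean of the other 4 contains mouse 61: with mouse 61 left out, the differences were −0.30 and −0.20 and neither passed (adjusted p = 0.9993 for both). Of 24 alternatives, Nr4a1 lost this call under 19 and Fos under 7. No member passed in the contrasts of mice 64, 65 and 68, where 0.0704%, 0.0985% and 0.0352% of genes were called as higher and 0.0352%, 0.0563% and 0.0774% as lower.

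**Figure D2:**
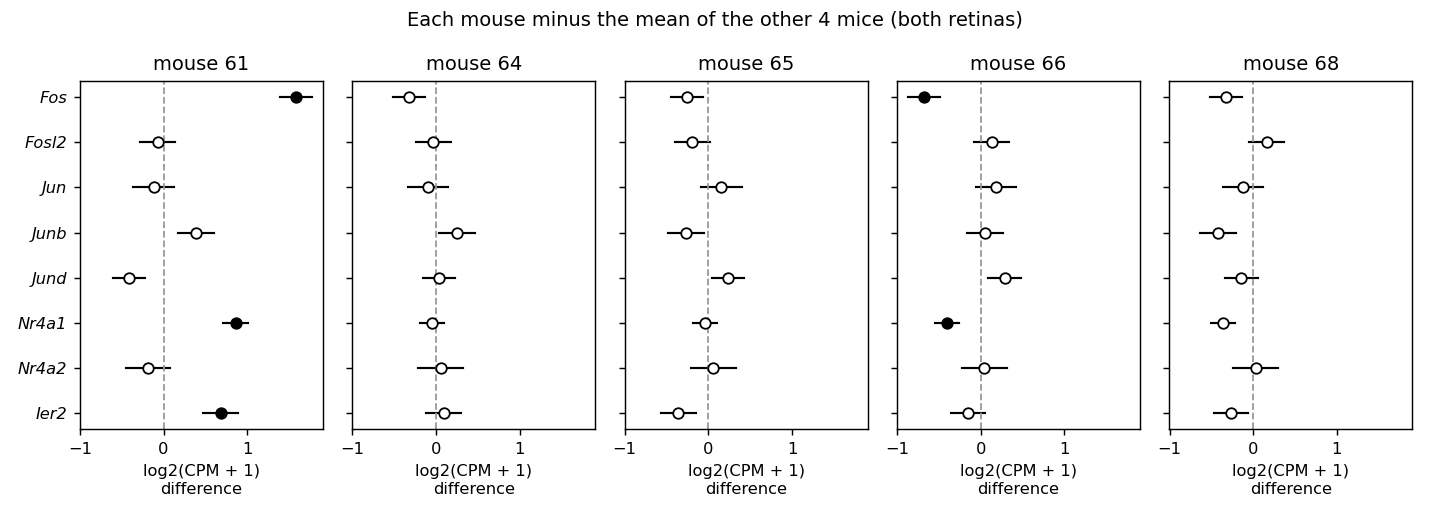
Difference in log2(CPM + 1) between both retinas of a mouse and the mean of the other 4 mice (horizontal axis) for the 8 tested members (rows), 1 panel per mouse. Points are limma estimates and bars are 95% intervals, which rest on differences between fellow eyes and not on the spread between mice. Filled points passed at an adjusted p under 0.05: Fos, Nr4a1 and Ier2 in mouse 61, Fos and Nr4a1 in mouse 66.

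The make-up of the AP-1 genes differed in mouse 61. Fos made up 48.0% and 47.9% of the summed Fos and Jun family level per kb in the right and left retina of mouse 61, against 15% to 23.4% in the other 8 libraries. Jund made up 21.9% and 22.4% there, against 38.5% to 45.3%. The summed level of the 3 Jun genes was 6.69 and 8.04 CPM per kb in mouse 61 and 6.89 to 9.64 CPM per kb in the others, ranges that overlap. Among the NR4A genes, Nr4a1 took 89.4% and 89.7% of the summed level per kb in mouse 61, against 73.0% to 80.1%.

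**Figure D3:**
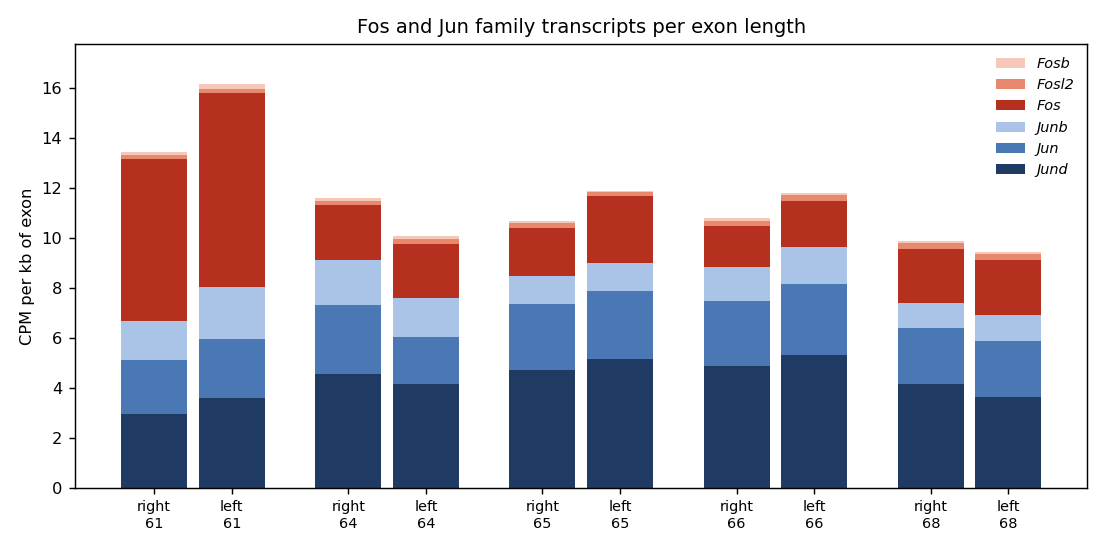
Level of each Fos family gene (reds) and Jun family gene (blues) in CPM per kb of exon, stacked for each retina, the right one left of the left one within a mouse. The stack reaches 13.4 and 16.1 CPM per kb in mouse 61 and 9.44 to 11.9 CPM per kb in the other libraries, with the Fos share as the widest difference.

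Junb, an early induced Jun protein, was spread more evenly. Its right and left retinas held 3.62 and 4.85 CPM in mouse 61, 4.08 and 3.58 CPM in mouse 64, and 3.18 and 3.44 CPM in mouse 66. Mouse 65 had 2.6 and 2.63 CPM and mouse 68 2.30 and 2.36 CPM, the lowest pair. The span between mice of 0.64 log2 units did not pass (limma adjusted p = 0.151). Junb overlaps Prdx2, which is read from the opposite strand and measured 30.5 to 37.3 CPM. Counting by strand is not stated, although the kit keeps strand, so reads of the overlap cannot be told apart.

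Jun stayed between 6.92 and 8.84 CPM on the right and between 5.94 and 9.09 CPM on the left. The lowest and one of the highest values came from mouse 64, with 8.84 CPM in the right and 5.94 CPM in the left retina. Nr4a2 (Nurr1, needed for dopaminergic neurons of the midbrain) lay between 1.25 and 1.97 CPM on the right and between 1.47 and 2.04 CPM on the left. Fosl2 lay between 1.83 and 2.20 CPM on the right and between 1.47 and 2.41 CPM on the left. None of the 3 passed the test between mice (limma adjusted p = 0.543, 0.798 and 0.494).

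Fosb and Nr4a3 were under the filter and were tested only in a fit of all 25905 genes, where neither passed. Fosb, the Fos family gene linked to lasting neuronal activity, measured 0.69 CPM in the right and 1.05 CPM in the left retina of mouse 61, against 0.322 to 0.685 CPM in the other 8. The right value of mouse 61 barely exceeded the highest of the others. Its difference of 0.27 log2 units in mouse 61 had an adjusted p of 0.174 (limma, no filter). Nr4a3, also known as NOR1, measured 0.434 and 0.211 CPM in the right and left retina of mouse 61, the second below the range of 0.290 to 0.693 CPM in the others (adjusted p = 0.415, limma, no filter). These values rest on 20 to 100 counts per library.

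How much of the variation lay between mice differed widely among the members. The mouse took 97.3% of the sum of squares of Fos, 96.3% of Nr4a1 and 95.6% of Ier2, against a median of 56.1% over all tested genes. Junb and Jund had 88.9% and 86.6%, Fosl2 69.5%, Jun 47.0% and Nr4a2 30.1%. In Fos the SD between mice was 0.72 log2 units and the SD between fellow eyes 0.15. In Jun and Nr4a2 the values were 0.12 and 0.08 between mice and 0.17 and 0.16 between eyes. The SD between mice was taken over means of both retinas, and that between eyes over single retinas. Their sizes are therefore not directly comparable.

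Right against left, 0 of the 8 tested members passed and 0% of all tested genes did (limma with the mouse as a block). At an unadjusted p under 0.05 there were 2 of 8 members, Fos and Nr4a1, beside 333 genes (2.34%), and both were lower on the right, as 0.809% of genes were. Limma-voom on the implied counts had 336 such genes, with 0 past adjustment. Fos averaged 6.76 ± 4.74 CPM on the right and 7.81 ± 5.85 CPM on the left (SD, n = 5 each), a difference of −0.16 log2 units within mice (95% interval −0.31 to −0.002, unadjusted p = 0.0472, adjusted p = 0.9996, limma). The right minus left difference was −0.38 in mouse 65, −0.25 in mouse 61 and −0.14 in mouse 66, while mice 68 and 64 had −0.03 and 0.02. Nr4a1 was the only member lower on the right in 5 of 5 mice, a pattern that 2.01% of tested genes showed. No member was higher on the right in 5 of 5 mice, where 2.78% of genes were. It averaged 6.98 ± 2.49 CPM on the right and 7.78 ± 2.91 CPM on the left (SD, n = 5 each), a difference of −0.13 (95% interval −0.25 to −0.02, unadjusted p = 0.0286, adjusted p = 0.9996, limma). Its single differences ran from −0.20 in mouse 66 to −0.05 in mouse 64.

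**Figure D4:**
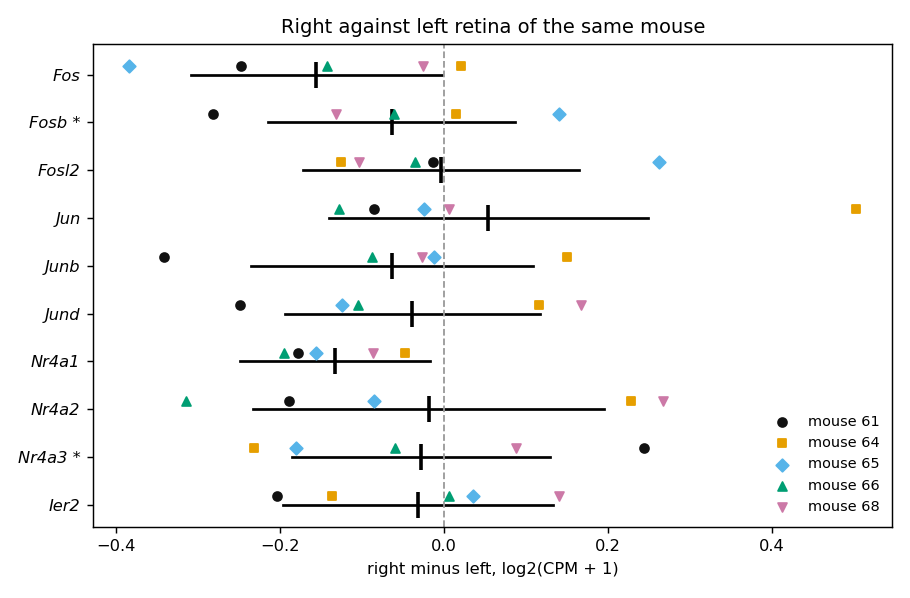
Right minus left difference in log2(CPM + 1) (horizontal axis) for the 10 members (rows). Coloured points are the 5 mice, black ticks the limma estimates and black bars their 95% intervals; an asterisk marks the 2 genes under the filter, taken from the fit of all genes. Nr4a1 is below 0 in all 5 mice, and the widest single difference is that of Jun in mouse 64 (0.50).

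The other members had intervals on both sides of 0. Junb differed by −0.06 (−0.24 to 0.11), Jund by −0.04 (−0.19 to 0.12), Ier2 by −0.03 (−0.20 to 0.13), Nr4a2 by −0.02 (−0.23 to 0.20) and Fosl2 by −0.003 log2 units (−0.17 to 0.16). Jun differed by 0.05 (−0.14 to 0.25), with 0.50 in mouse 64 and −0.13 to 0.01 in the other 4 mice. Without mouse 64, Jun differed by −0.058. The left retina of that mouse held the lowest Jun value of all libraries, 5.94 CPM. The lost raw reads were those of its right retina, where Jun was at 8.84 CPM. The median over the 8 tested members was −0.04, with 7 of 8 lower on the right, beside a median of 0.002 and 6944 of 14210 lower over all genes. Without mouse 61 or either of its retinas, 3 of 8 were lower on the right (Fos, Fosl2 and Nr4a1) and the median was 0.0086. Without mouse 66 there were 5 of 8, and the median was −0.079 without mouse 64, −0.059 without mouse 65 and −0.082 without mouse 68. Because the lens may have been on either side, fellow eyes that differ in opposite directions cancel in this comparison. The widest difference of a tested member within a mouse ranged from 0.20 log2 units for Nr4a1 and Ier2 to 0.50 for Jun.

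Around these genes, the lists of the pathway differed in how many of their tested genes passed in mouse 61. Of 17 tested other immediate early genes 3 passed as higher in mouse 61 and none as lower, with a median of 0.09 beside 0.04 over all genes. Over all tested genes 0.844% passed as higher and 0.366% as lower in this contrast, and the 172 genes called became 15 without the right and 11 without the left retina of mouse 61. The 3 were Egr1, Klf10, a Krüppel-like repressor induced by TGF-beta (0.52, SE 0.10, limma adjusted p = 0.0415), and Homer1, a scaffold of glutamate receptors with an activity-induced short form (0.25, SE 0.05, limma adjusted p = 0.0431). Egr1 stood at 26.1 and 32.4 CPM in the right and left retina of mouse 61, against 1.27 to 3.57 CPM in the other 8, while Arc, an activity-induced synaptic gene, stood at 0.323 and 0.348 CPM against 0.260 to 0.436 CPM. Of 15 tested feedback inhibitors 1 passed, Dusp5, a nuclear phosphatase of ERK (0.46, SE 0.09, limma adjusted p = 0.0477). None of 12 tested AP-1 dimer partners, 16 upstream transcription factors, 21 kinases of the MAP kinase and calmodulin pathways, 9 AP-1 target genes or 6 NR4A partners and targets passed in this contrast. Their medians were 0.06, −0.03, 0.04, 0.10 and 0.12 log2 units.

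No gene of any of these lists passed right against left. Of 9 tested stress and heat shock genes 1 passed, Hspa1b, an inducible heat shock protein 70 (−0.48, SE 0.07, limma adjusted p = 0.0158), as lower in mouse 61, where 0.366% of all tested genes did. Hspa1b also passed between mice (limma F-test, adjusted p = 0.029) and in the contrast of mouse 66. Its right and left retinas held 18.6 and 17.9 CPM in mouse 66, the highest pair, and 10.15 and 10.75 CPM in mouse 61. The summed level of the 10 listed stress genes was 788.0 and 796.9 CPM in the right and left retina of mouse 61, against 804.6 to 889.7 CPM. Blood and microglial markers summed to 26 and 35.4 CPM there, against 15.8 to 36.7 CPM, and vascular markers to 79.3 and 84.9 CPM, against 85.6 to 94.0 CPM. No marker of these lists was at 0 in all libraries. Lens, muscle, pigment epithelium and fibroblast markers in mouse 61 lay within the range of the other libraries. The part of these in the high Fos, Nr4a1 and Ier2 was not tested. Xist, the noncoding RNA of the inactive X chromosome, was at 719.4 and 706.5 CPM in mouse 61 and at 786.6 and 801.8 CPM in mouse 65, and at no more than 1.87 CPM in the other 3 mice. Mouse 65, which was also high in Xist, held Fos at 4.57 and 6.27 CPM. A link between Xist and the level of Fos was not tested.

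The profile most like that of Fos was that of another member. Likeness was taken as the root mean square distance between log2(CPM + 1) values centred on the mean of each gene, over the 10 libraries. Nr4a1 was at a distance of 0.31 and Ier2 at 0.42, against a median of 0.64 over all tested genes and 0.72 and 0.83 for Jun and Jund. Outside the members the 5 nearest were Selenbp1 (0.35), a selenium-binding protein, Map3k14 (0.38), the kinase of noncanonical NF-κB signalling, Ccn4 (0.38), a secreted matricellular protein, Hcls1 (0.41) and Pisd-ps1 (0.41). Egr1 was farther, at 0.68. The distance also counts the size of a difference: in mouse 61 Egr1 was higher by 3.23 log2 units and Fos by 1.58. Nearest to the mean profile of the 8 tested members were Prdm10, Fbll1, Dtd1, Rpl14-ps1 and Ska2, at distances of 0.05 to 0.07. The 10 libraries come from 5 mice, and these distances carry no test.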

How the data were processed

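Total RNA of 10 retinas (5 right, 5 left, from 5 mice) was sequenced by the authors after removal of ribosomal RNA with a strand-specific kit, per the labels' protocols. Per the submitters' processing notes, STAR and Partek were used with GRCm38 (mm10). Their versions and the counting rule are not given in the sources used. The deposited values are CPM, a unit read from the values, with 0.0001 added by the authors; the 0.0001 was taken off. The most frequent value above 0 of a library, or a fraction of it where 2 counts were the most frequent, was taken as the worth of 1 count. With it 90.3% to 91.5% of values up to 20 counts were whole within 0.1, too few for a count test.

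Values were analysed as log2(CPM + 1), which understates the change of low genes, over the 14210 genes that averaged 1 CPM or more. R 4.3.3 and limma 3.58.1 were used with a variance trend and Benjamini-Hochberg adjustment at 0.05. Right against left had the mouse as a block, since both retinas of a number come from 1 animal. Their deviations from the side means correlated across genes at 0.143 to 0.607. The retinas of a mouse are replicates of that mouse only. The scripts were tested on simulated data. Other pseudocounts, filters, scalings, variance models and left-out libraries were tried. The members and lists were chosen with earlier results of these data known. Beside the members, the text names every list gene that passed, Fosl1, Egr1, Arc and the 5 genes nearest in profile to Fos and to the members' mean. Coordinates are those of GRCm38; sequences are from the RefSeq table for GRCm38.p6, which held 9 of the 10 members. Exon lengths are from GENCODE M21.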

Additional observations from a re-analysis of the deposited data

Results flagged for a closer look

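In 4 of the 20 groups of 5 retinas of a side (10 members, right and left), 1 library stood far from the other 4, where chance flags about 1 in 20 groups and 5.44% of such groups over all tested genes were flagged. All 4 were high in mouse 61, as were 1.5% of the groups over all tested genes. The right and left retinas come from the same mice and are not independent groups. The 4 groups are Fos and Nr4a1 on each side, which restates the difference of mouse 61 given above. The members were chosen with earlier results of these data known, so the chance rate is no test for them. Egr1, which is no member and whose level in mouse 61 was known beforehand, stood apart on both sides. On the right Fos stood at 15.2 CPM, against 3.80 to 5.17 CPM in the other 4 right retinas, and on the left at 18.2 CPM, against 4.29 to 6.27 CPM. Nr4a1 stood at 11.3 CPM on the right, against 5.03 to 6.74 CPM, and at 12.9 CPM on the left, against 5.81 to 7.32 CPM. Egr1 stood at 26.1 CPM on the right, against 1.27 to 2.33 CPM, and at 32.4 CPM on the left, against 2.02 to 3.57 CPM.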

How the results depend on the processing

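Right against left, the counts of 0 genes and 0 members called were the same under every alternative. The number of genes at an unadjusted p under 0.05 (333) was 856 with no filter, 172 with a filter of 5 CPM, 188 with no replicate block, 204 without mice 65 and 68, and 230 to 411 when a mouse or library was left out. The pairing comes from the animals. With 0 genes called with or without the block, the calls cannot show what the block did. Among small differences, Fosl2 was 0.00034 with a pseudocount of 0.1 CPM. With a mouse or library left out, Fosl2 ran from −0.069 to 0.028, Jun from −0.058 to 0.10, Junb from −0.12 to 0.0059, Jund from −0.090 to 0.014, Nr4a2 from −0.090 to 0.055 and Ier2 from −0.075 to 0.011. Fos (−0.20 to −0.10) and Nr4a1 (−0.16 to −0.09) were below 0 under every alternative.

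Between mice, the 81 genes called became 36 with no variance trend, 41 without mice 65 and 68, and 23 to 116 with a mouse or library left out; the 3 members called became 0 to 3. Fos kept its call in every alternative that held mouse 61. In mouse 61 against the others, the 172 genes called became 73 with no filter, 62 with no variance trend, 425 with no side term, 62 without mice 65 and 68, and 11 to 690 with a mouse or library left out. Its 3 members called became 2 to 5, Junb joining without mouse 64 (adjusted p = 0.0396, limma; 0.0396 to 0.717 over all alternatives). For mouse 66 the 33 genes became 14 with no filter, 11 with no variance trend, 15 without mice 65 and 68, and 5 to 55 with a library left out. Its 2 members became 1 with a pseudocount of 5 CPM, no filter, median-ratio scaling, quantile normalization, limma-voom, no variance trend and no side term, and 0 to 2 with a library left out. For mouse 64 the 15 genes became 5 with no variance trend (5 to 28 with a library left out), for mouse 65 the 22 became 9 (11 to 57), and for mouse 68 the 16 became 7 with no filter, 7 with no variance trend and 27 with no side term (5 to 26), with 0 to 1 member called. With median-ratio scaling, both retinas of mouse 61 lay above all others for 1230 genes and below for 1232, in place of 1874 and 692, both of mouse 64 lay above for 466 in place of 297, and 1 member lay below in mouse 65 in place of 0. The causes were not tested. Where 1 retina of a mouse was left out, the other was taken to vary like the rest. Fosb and Nr4a3 rest on 20 to 100 counts, which limits what could be detected for them. Intervals and SEs rest on the spread left after the terms for mouse and side. In the contrasts of a mouse they do not measure the spread between animals.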
